A study of Gallus gallus with 9 samples.

Results

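Immediate-early transcription factors were examined in preadipocytes of laying hens. The genes were given by name as EGR1, FOS, FOSL2, JUN, JUND, ATF3 and MYC. Of these 7 genes, 6 have a probe set in the platform annotation, with 7 probe sets in all among the 38439 probe sets and 13009 named genes of the array. JUND is not analysed here, because no probe set carries its symbol. EGR1 has 2 probe sets, of which the brighter stands for the gene.

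Cells from abdominal fat of 3 hens of the Lohman strain, 19 wk old, were grown to confluence and cultured for a further 96 hr in 1 of 3 ways. The arrays titled control hold RNA of non-treated cells, kept in medium with 10% fetal bovine serum. Those titled DMIOA hold cells given 500 nM dexamethasone (a synthetic glucocorticoid), 0.5 mM 3-isobutyl-1-methylxanthine (which blocks the breakdown of cyclic AMP), insulin at 20 μg/mL, and oleic acid at 300 μM. In the arrays titled DMIOA+20S the same cocktail was joined by 5 μM 20(S)-hydroxycholesterol, an oxysterol. Each title has 3 arrays, numbered 1 to 3 and labelled as biological replicates. All groups are primary cultures of the cells that sink when digested fat is spun, without a sort, so they may hold more than 1 cell type, and no label ties an array to a hen. The p-values therefore measure the spread between these arrays, which may not be a spread between hens.

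Immediate-early genes are transcribed soon after a cell receives a growth factor, a hormone or a stress, from factors that are already present. EGR1 is a zinc finger protein that binds GC-rich promoters. The proteins of the FOS and JUN families pair through leucine zippers to form AP-1, ATF3 is a related zipper protein induced by stress, and MYC pairs with MAX to drive genes of growth. MAP kinases start this response through the serum response factor and its partners, and phosphatases of the DUSP family and the Sprouty proteins end it. In mouse preadipocyte lines the response to an adipogenic cocktail includes a brief burst of these factors. The present cells were sampled long after the cocktail was added.

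Values are log2 units per probe set after GCRMA, which corrects the background and normalizes the arrays together. The array medians lay between 2.11 and 2.14, where most probe sets are dim, so a value near 2 is close to the floor. Where a gene has 3 readings for a title, they follow replicates 1, 2 and 3. The arrays did not sort by title. Over all probe sets except those of the members, arrays of 1 title correlated at r = 0.971 to 0.997, and the closest array carried the same title for 4 of 9 arrays. The closest sets of arrays are A (control 1, control 2 and DMIOA 1), B (DMIOA 2, DMIOA+20S 1 and DMIOA+20S 2) and C (the 3 arrays titled replicate 3). The titles of C spell out replicate, where those of A and B write rep. Whether the arrays of C were processed apart is not given. Correlations were 0.993 to 0.997 within these sets, 0.970 to 0.976 between A and the others, and 0.989 to 0.995 between B and C. For 7 of 9 arrays the closest array lay in the same set. Each such r is taken across probe sets and so describes the arrays without a p. The sets come from the values and not from the labels, so single values and ranges are given for them, with no mean and no test. FABP4, a fatty acid carrier of adipocytes, followed the sets, at 10.04, 10.23 and 13.39 in control, 10.22, 13.60 and 13.39 in DMIOA and 13.69, 13.73 and 13.42 in DMIOA+20S. It thus lay at the level of DMIOA+20S on control 3 and at that of control 1 and 2 on DMIOA 1. Whether titles were exchanged was not tested. If they were, the titled means and differences below would not hold the cultures that the titles name.

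EGR1 was bright on all 9 arrays and was the bright member with the widest range. It read 10.49, 10.28 and 9.79 (log2) in control, 10.52, 8.86 and 10.19 in DMIOA and 8.79, 8.86 and 9.92 in DMIOA+20S. Each title holds a value near 10, and DMIOA 2 lay with 2 of the arrays titled DMIOA+20S, so all 3 titles overlap. The means were 10.18 ± 0.36 for control, 9.86 ± 0.88 for DMIOA and 9.19 ± 0.63 for DMIOA+20S (SD, n = 3 each). The log2 difference was -0.33 for DMIOA against control (95% interval -1.40 to 0.74, adjusted p = 0.994 from limma) and ran from -0.66 without DMIOA 1 to 0.17 without DMIOA 2. For DMIOA+20S against DMIOA it was -0.66 (95% interval -1.73 to 0.40, adjusted p = 0.977), and it ran from -1.16 without DMIOA 2 to -0.33 without DMIOA 1. For DMIOA+20S against control it was -0.99 (95% interval -2.06 to 0.07, adjusted p = 0.494). EGR1 was called in none of them, and all 3 intervals include a 2-fold lower level.
The other EGR1 probe set gave the same order of sets. It read 8.10, 8.09 and 7.42 in control, 8.08, 5.60 and 7.42 in DMIOA and 5.75, 6.18 and 7.47 in DMIOA+20S. The readings of both probe sets correlated at r = 0.97 over the 9 arrays, which share their processing. Its log2 difference for DMIOA+20S against control was -1.40 (standard error 0.65, adjusted p = 0.494 from limma). By set, EGR1 ranged from 10.28 to 10.52 in A, from 9.79 to 10.19 in C and from 8.79 to 8.86 in B, with no overlap.

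MYC varied in the same order with a smaller range. The readings were 10.28, 10.28 and 9.92 (log2) in control, 10.18, 9.57 and 10.05 in DMIOA and 9.64, 9.60 and 9.96 in DMIOA+20S. DMIOA 2 was the lowest array and the control arrays 1 and 2 were the highest, while the 3 titles overlapped. MYC measured 10.16 ± 0.21 for control, 9.93 ± 0.32 for DMIOA and 9.73 ± 0.19 for DMIOA+20S (SD, n = 3 each). Its log2 difference was -0.23 for DMIOA against control (95% interval -0.66 to 0.20, adjusted p = 0.994 from limma) and -0.20 for DMIOA+20S against DMIOA (-0.63 to 0.23, adjusted p = 0.977). DMIOA+20S against control gave -0.43 (-0.86 to -0.0038, adjusted p = 0.492). Leaving out DMIOA 1 or DMIOA 2 moved DMIOA minus control to -0.35 or -0.049, and DMIOA+20S minus DMIOA to -0.077 or -0.38. A 2-fold difference lies outside all 3 intervals, which are for this gene alone and are not adjusted over probe sets. By set MYC lay between 10.18 and 10.28 in A, 9.92 and 10.05 in C, and 9.57 and 9.64 in B. The correlation of MYC with EGR1 over the 9 arrays was r = 0.97, on arrays that fall into these sets.

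**Figure D1:**
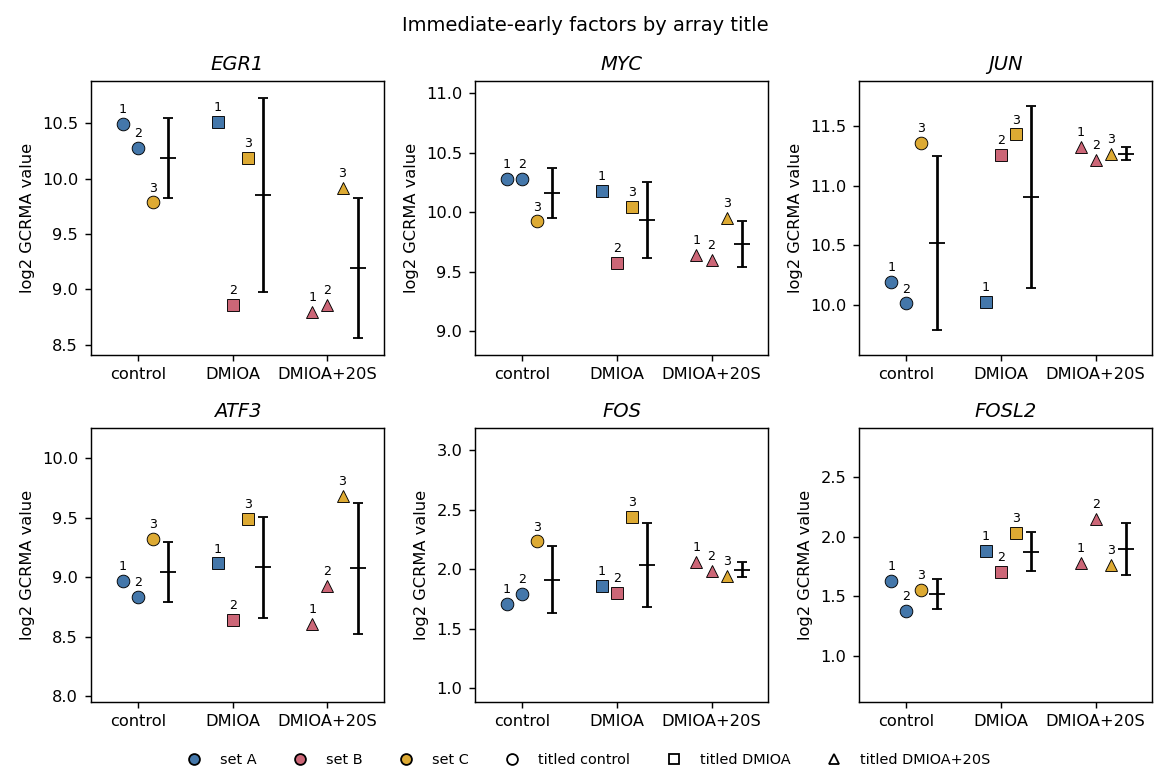
Log2 GCRMA values of the 6 measured immediate-early factors (vertical axes, each with its own range) on the 9 arrays, placed by title (horizontal axes) and numbered by replicate, with the mean and SD of each title as a bar at its right. Colours mark the closest set of arrays, and EGR1 on the array titled DMIOA 2 (8.86) lies beside DMIOA+20S 1 and 2 (8.79 and 8.86) rather than DMIOA 1 (10.52).

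JUN, the partner shared by most AP-1 dimers, ran the other way. It read 10.19, 10.01 and 11.36 (log2) in control, 10.03, 11.26 and 11.43 in DMIOA and 11.32, 11.22 and 11.27 in DMIOA+20S. Only control 1, control 2 and DMIOA 1 lay below 11, and the other 6 arrays lay within 11.22 to 11.43. The titled means were 10.52 ± 0.73 for control, 10.90 ± 0.77 for DMIOA and 11.27 ± 0.05 for DMIOA+20S (SD, n = 3 each). The log2 difference was 0.39 for DMIOA against control (95% interval -0.61 to 1.38, adjusted p = 0.994 from limma), and it ran from 0.12 without DMIOA 3 to 0.83 without DMIOA 1. It was 0.36 for DMIOA+20S against DMIOA (-0.63 to 1.36, adjusted p = 0.977) and -0.076 without DMIOA 1. For DMIOA+20S against control it was 0.75 (-0.25 to 1.75, adjusted p = 0.537), 0.50 without control 2 and 1.17 without control 3 (adjusted p = 0.162). JUN ranged from 10.01 to 10.19 in set A, from 11.22 to 11.32 in B and from 11.27 to 11.43 in C, so only B and C overlap.

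ATF3 had nearly equal titled means and another pattern over the arrays. It measured 9.04 ± 0.25 for control, 9.08 ± 0.43 for DMIOA and 9.08 ± 0.55 for DMIOA+20S (log2, SD, n = 3 each). The single readings were 8.97, 8.83 and 9.32 in control, 9.12, 8.64 and 9.49 in DMIOA and 8.61, 8.93 and 9.69 in DMIOA+20S. Within each title the array numbered 3 was the highest. The log2 difference was 0.04 between DMIOA and control (DMIOA minus control), -0.0080 between DMIOA+20S and DMIOA and 0.03 between DMIOA+20S and control, each with a standard error of 0.31 (limma, adjusted p = 0.998, 0.999 and 0.975). The 95% intervals reached from -0.71 to 0.75 over the 3 comparisons. By set ATF3 ranged from 9.32 to 9.69 in C, from 8.83 to 9.12 in A and from 8.61 to 8.93 in B, and A and B overlap. Unlike EGR1 and MYC, ATF3 was highest on the arrays titled replicate 3, and its correlation over the 9 arrays was r = 0.50 with EGR1 and r = 0.23 with JUN.

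FOS and FOSL2, the partners of JUN from the FOS family in this group, stayed at the floor on all 9 arrays. FOS read 1.71, 1.79 and 2.23 (log2) in control, 1.86, 1.80 and 2.44 in DMIOA and 2.06, 1.98 and 1.94 in DMIOA+20S. Relative to control its log2 difference was 0.12 in DMIOA and 0.09 in DMIOA+20S, and it was -0.04 in DMIOA+20S relative to DMIOA (standard error 0.20, adjusted p from 0.894 to 0.994 from limma). FOSL2, also called FRA2, read 1.63, 1.38 and 1.55 in control, 1.88, 1.71 and 2.03 in DMIOA and 1.78, 2.15 and 1.76 in DMIOA+20S. All control arrays lay below all others for FOSL2, with log2 differences of 0.35 for DMIOA and 0.38 for DMIOA+20S against control (standard error 0.14, adjusted p = 0.994 and 0.492). GCRMA compresses values in this range, and a reading at the floor does not show that the transcript was absent. The differences of both genes are therefore within a range where the array carries little signal.

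The 3 comparisons share arrays and were fitted together, and none of the 6 members was called in any of them. A call needed an adjusted p under 0.05 over all probe sets and a log2 difference of at least 1. Over the whole array limma called 0 probe sets for DMIOA against control (0.00%), 0 for DMIOA+20S against DMIOA (0.00%) and 2 for DMIOA+20S against control (0.00520%). Without adjustment, 905, 1099 and 3880 probe sets had p under 0.05 in the same order, among them 1, 0 and 2 of the members. The methods' t-test called 0 in each comparison after Benjamini-Hochberg adjustment. At unadjusted p under 0.05 and a 2-fold difference it gave 1, 5 and 221. The methods also name a filter on the false discovery rate, which those counts leave out. Of the 6 members, 4 were higher and 2 lower for DMIOA against control, with a median log2 difference of 0.08 beside -0.0071 over all genes. For DMIOA+20S against DMIOA 2 were higher and 4 lower with a median of -0.02 (all genes -0.0099), and for DMIOA+20S against control 4 were higher and 2 lower with a median of 0.06 (all genes -0.0072). The titled groups did not overlap for 1 member of 6 in DMIOA against control (background 4.26% of genes), 0 in DMIOA+20S against DMIOA (6.59%) and 1 in DMIOA+20S against control (15.6%). In both cases the gene was FOSL2, at the floor.

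**Figure D2:**
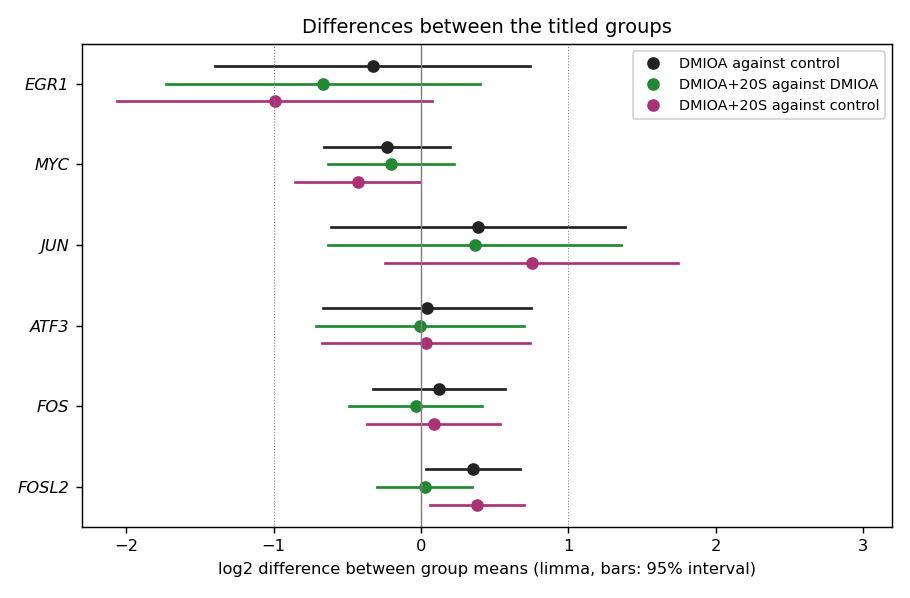
Log2 differences between the titled groups for the 6 measured factors (points, horizontal axis) with 95% intervals from limma (bars), 1 colour per comparison, and dotted lines at a 2-fold difference. EGR1 in DMIOA+20S against control lies farthest from 0 at -0.99, and the intervals of JUN and EGR1 are the widest.

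By closest set the members fell into different orders. EGR1, JUN and MYC did not overlap between A and B (3 of 6, background 42.9% of genes). Those 3 genes with ATF3 and FOS did not overlap between A and C (5 of 6, background 43.2%), and EGR1, MYC and ATF3 did not overlap between B and C (3 of 6, background 20.3%). The share of members apart between A and B is near that of all genes. Many of all genes are dim, and sets separate more often among brighter genes. Of 7190 genes that reached a log2 value of 4 on at least 1 array, 4465 were apart between A and B. For A and C it was 4491 of them, and for B and C 2052. EGR1 and MYC were apart in all 3 sets, as were 10.8% of genes, and both had A over C over B, an order that 2.81% of genes had. JUN separated A alone, and ATF3 separated C alone. FOSL2 overlapped between all sets.

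**Figure D3:**
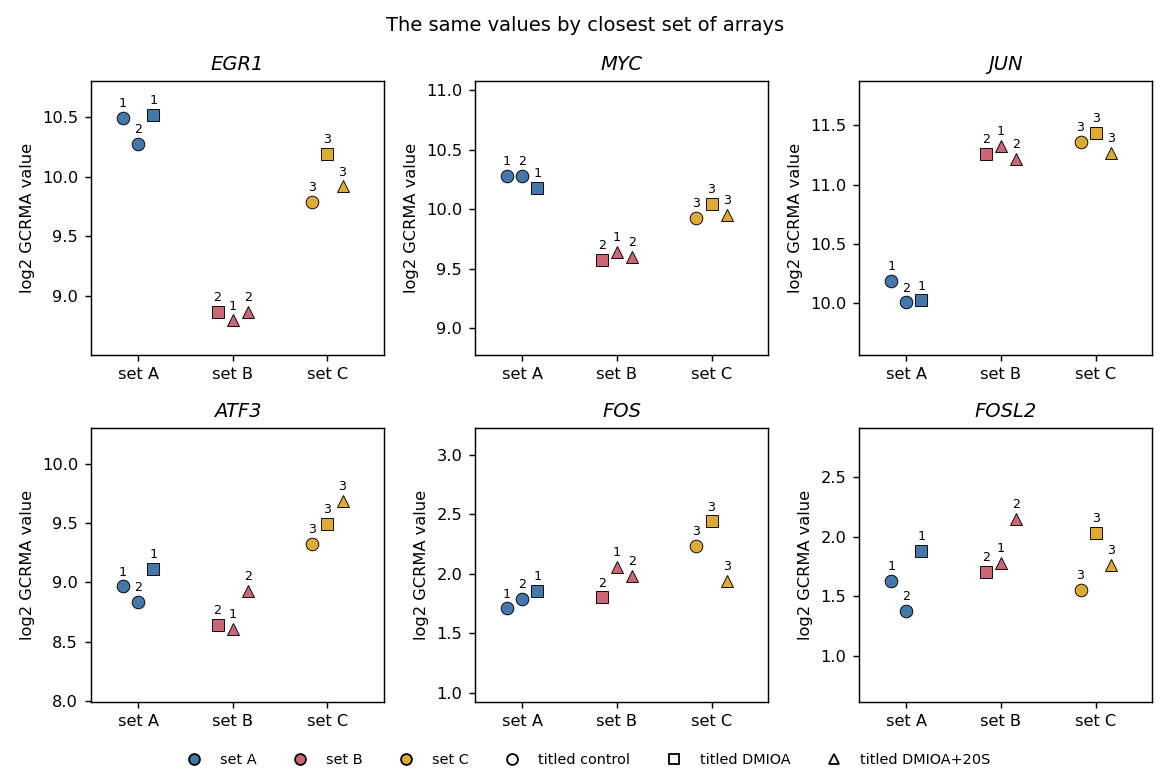
The same log2 GCRMA values (vertical axes) as placed by title, here by closest set of arrays (horizontal axes), with marker shapes for the titles, the replicate number above each point and no mean drawn. EGR1 and MYC run A over C over B, JUN is low in set A only, and ATF3 is highest in set C.

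Related genes were taken from 9 lists with 154 genes, of which 113 were measured and 81 reached a log2 value of 4 on at least 1 array. Limma called 0 of the 113 in any comparison. For DMIOA against control 59 were higher and 54 lower (median log2 difference 0.03), for DMIOA+20S against DMIOA 64 and 49 (0.04), and for DMIOA+20S against control 58 and 55 (0.0048). The order of EGR1 and MYC, A over C over B, was shared by 6 of the 113 (background 2.81% of genes). These were MAFF, MAFK, MAP3K1, MAPK13 (below 3 on all arrays), DUSP5 and DUSP6. That background covers all 13009 genes, of which 7190 reached a log2 value of 4, and sets separate more often among brighter genes. The share with this order among brighter genes was not counted, so no excess is read from the 6.

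Among other AP-1 partners, 11 of 17 genes were measured, and 4 were higher and 7 lower for DMIOA against control (median -0.12). FOSB, FOSL1 and JUNB are not analysed here, because no probe set carries their symbols. MAFF, a small MAF protein that pairs with other zipper proteins, read 9.72, 9.37 and 8.35 (log2) in control, 9.22, 7.83 and 8.68 in DMIOA and 7.65, 7.62 and 8.33 in DMIOA+20S. It had the order of EGR1 over the sets, with a log2 difference of -1.28 for DMIOA+20S against control (standard error 0.44, adjusted p = 0.492 from limma). MAFK, named after its values were seen, was the other gene of this list in the order A over C over B, with 10.24 to 10.51 in A, 9.50 to 10.07 in C and 8.72 to 8.86 in B. BACH1, a heme-sensing partner of the small MAF proteins, ranged from 6.59 on DMIOA+20S 1 to 8.58 on DMIOA 1.
Of the ATF and CREB factors 10 of 18 were measured, with 4 higher and 6 lower for DMIOA against control (median -0.04). CREB3L2, a membrane-bound factor of the secretory pathway, read 11.13, 11.00 and 10.29 in control, beside 10.38, 10.23 and 9.84 in DMIOA+20S. These titles overlap only through control 3. CRTC1, a coactivator of CREB, ranged from 5.31 on DMIOA 1 to 6.24 on DMIOA+20S 2. Of the other EGR factors and their NAB corepressors, EGR4 and NAB1 were measured and stayed between 2.01 and 2.84.

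In the MYC network 10 of 14 genes were measured, with 5 higher and 5 lower in each of the 3 comparisons. MYCN, the neuroblastoma-derived relative of MYC, read 10.58, 10.54 and 8.48 (log2) in control, 10.54, 8.37 and 8.44 in DMIOA and 8.12, 8.39 and 8.36 in DMIOA+20S. It was high on the arrays of set A only, without the middle level that MYC had on set C. Its log2 difference for DMIOA+20S against control was -1.57 (standard error 0.70, adjusted p = 0.492 from limma). MNT, a MAX-binding repressor, stayed between 1.91 and 2.71. Of 15 genes known as MYC targets 11 were measured, and 7 were higher and 4 lower for DMIOA against control (median 0.05). CAD, an enzyme of pyrimidine synthesis, ranged from 4.91 on DMIOA 1 to 6.54 on DMIOA+20S 1, and DKC1, of the snoRNA-guided pseudouridine synthase, from 8.67 on DMIOA 1 to 9.77 on DMIOA 3. Both read lower on the arrays of set A, where MYC read highest. Of the 11 targets, 6 lay lower on A than on B without overlap and 1 higher (background 42.9% of genes in either direction). Against C the counts were also 6 and 1 (background 43.2%). All 11 reached a log2 value of 4, and sets separate more often among such genes. LDHA, like MYC, was highest on A, at 12.37 to 12.44, beside 12.13 to 12.27 on B and 12.11 to 12.29 on C. Unlike MYC, it overlapped between B and C.

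Upstream of these factors, serum response factor and its cofactors had 7 of 8 genes measured, with 4 higher and 3 lower for DMIOA against control. MYOCD, the muscle cofactor of serum response factor, read 6.25, 6.42 and 2.76 (log2) in control, 6.27, 3.11 and 2.55 in DMIOA and 3.00, 2.73 and 3.06 in DMIOA+20S. FHL2, a LIM protein that binds serum response factor, ran opposite, from 4.28 to 4.76 on the arrays of set A and from 7.75 to 8.30 on the other 6. Neither was called (adjusted p = 0.512 and 0.505 from limma for DMIOA+20S against control). Among MAP kinases and upstream kinases 20 of 26 were measured, with 9 higher and 11 lower for DMIOA against control. MAP3K8, a kinase that activates the ERK pathway, read 2.58, 2.93 and 5.57 in control, 2.58, 4.94 and 5.94 in DMIOA and 5.18, 4.35 and 5.73 in DMIOA+20S, so it was at the floor on set A. RPS6KA5, a kinase of CREB and of histone H3, ranged from 2.96 on DMIOA 3 to 5.08 on DMIOA 1.

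The inhibitors that limit MAP kinase signalling held more than 1 pattern. Of 18 genes 16 were measured, with 8 higher and 8 lower for DMIOA against control (median 0.02). DUSP6, a phosphatase of ERK, read 8.22, 8.31 and 7.33 (log2) in control, 8.33, 5.65 and 7.87 in DMIOA and 6.01, 5.50 and 7.09 in DMIOA+20S. Like EGR1 and MYC it had A over C over B, as did DUSP5, named after its values were seen (8.22 to 8.61 in A, 7.60 to 7.79 in C and 6.55 to 6.75 in B). The log2 difference of DUSP6 for DMIOA+20S against control was -1.75 (standard error 0.70, adjusted p = 0.492 from limma). DUSP1, a phosphatase that is induced by glucocorticoids and by stress, had another order. It read 7.58, 7.47 and 9.48 in control, 7.72, 8.40 and 9.97 in DMIOA and 8.60, 8.05 and 9.60 in DMIOA+20S. It was thus highest on the arrays titled replicate 3, as was ATF3, but unlike ATF3 it was lowest on A without overlap. The Sprouty genes SPRY1 and SPRY2, named after their values were seen, had the order of DUSP1. All 3 sets were apart in some order for 10.8% of genes, and the share with this order was not counted. SPRY1 read 4.28 to 4.53 on A, 5.46 to 5.60 on B and 6.28 to 6.72 on C. SPRY2 read 7.32 to 7.39, 8.86 to 9.01 and 9.04 to 9.23, so its B and C lay close. SPRY3 and SPRY4 stayed between 1.34 and 2.08.
Of 33 other immediate-early genes 26 were measured, with 17 higher and 9 lower for DMIOA against control (median 0.07), 16 and 10 for DMIOA+20S against DMIOA (0.12) and 15 and 11 for DMIOA+20S against control (0.15). NR4A2, an orphan nuclear receptor, read 1.90, 2.42 and 4.36 in control, 1.50, 3.70 and 5.24 in DMIOA and 3.43, 3.63 and 4.68 in DMIOA+20S. ID1, an inhibitor of helix-loop-helix factors, lay between 5.45 and 5.55 on set A and between 7.87 and 8.48 elsewhere. The titles overlap for NR4A2. For ID1 the DMIOA arrays overlap with those of both other titles, whereas control 3, at 7.87, lies just below the lowest DMIOA+20S array, so control and DMIOA+20S do not overlap.

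**Figure D4:**
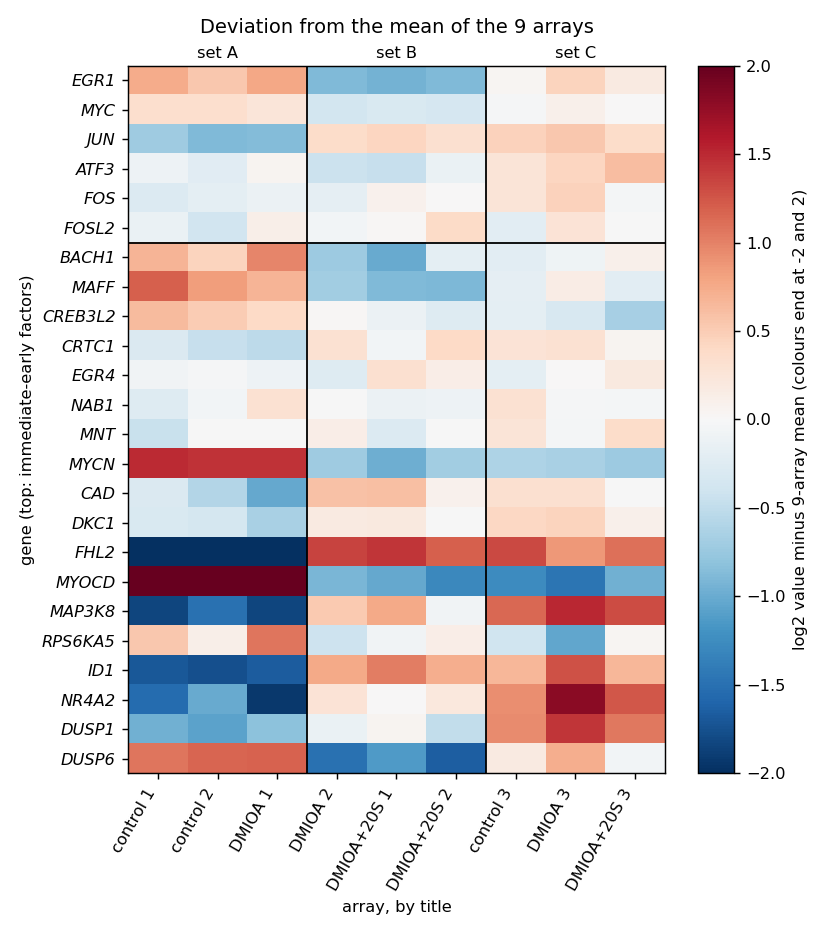
Log2 value minus the mean of the 9 arrays (colour, ending at -2 and 2) for the 6 measured factors above the line and the 2 genes with the widest range from each of the 9 related lists below it (rows), on the 9 arrays in the order of their closest sets (columns). DUSP6 and MAFF share the order of EGR1 over the sets, whereas DUSP1 is highest on the 3 arrays titled replicate 3.

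The genes most like each member were sought among 3196 genes with a range of at least 1, by Pearson's r over the 9 arrays. The arrays share their processing and fall into sets, so these values describe a common pattern and carry no p. For EGR1 they were CDKN2B, an inhibitor of cyclin-dependent kinases (r = 0.992), LHFPL2 (r = 0.991) and the LIM protein CRIP1 (r = 0.990). CDKN2B read 10.50, 10.21 and 9.23 (log2) in control, 10.63, 7.59 and 10.48 in DMIOA and 7.59, 7.69 and 9.40 in DMIOA+20S. For MYC they were the ETS factor ETV1 (r = 0.991), the Kruppel-like factor KLF6 (r = 0.991) and the intermediate filament protein nestin, NES (r = 0.990). KLF6 read 12.44, 12.39 and 11.51 in control, 12.25, 10.79 and 11.80 in DMIOA and 10.71, 10.76 and 11.42 in DMIOA+20S.
For JUN they were CMBL, a hydrolase (r = 0.998), the interleukin-13 receptor IL13RA1 (r = 0.998) and the RNA-binding HNRNPA1 (r = 0.997). For ATF3 they were the adhesion molecule VCAM1 (r = 0.952), the adaptor GAB2 (r = 0.951) and ELMOD2 (r = 0.938). VCAM1 read 4.58, 4.74 and 5.33 on control 3, DMIOA 3 and DMIOA+20S 3 and between 1.95 and 3.19 on the other 6 arrays. For FOS they were MTNR1B (r = 0.961), HMP19 (r = 0.901) and SCARA5 (r = 0.886), and for FOSL2 they were PIP4K2A (r = 0.826), GNA12 (r = 0.812) and MIEF2 (r = 0.810). FOS and FOSL2 are at the floor, so nothing is read from these matches.

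Markers of cell types were read beside these results. Of 15 stromal and preadipocyte markers 11 reached a log2 value of 4, led by VIM at 14.14 to 14.33 and FN1 at 14.04 to 14.27. The other 4 stayed below 3 on all arrays, namely PDGFRA (1.05 to 2.15), DLK1 (1.16 to 1.27), ENG (2.13 to 2.71) and NT5E (1.27 to 1.70). FASN, fatty acid synthase, ranged from 9.75 to 10.96. The summed linear level of 12 of 12 adipocyte markers was 2630 to 2798 on the arrays of set A, 15120 to 16090 on B and 13280 to 13470 on C, and on B and C it is mostly FABP4. Of the 12, 5 stayed below 3 on all arrays. On A, 6 markers lay below and 1 above B without overlap (background 42.9% of genes in either direction). Against C, 6 markers lay below and 2 above on A (background 43.2%). PPARG, the adipogenic nuclear receptor, read 8.93 to 9.30 on A and 7.95 to 8.61 on C, and the desaturase SCD read 2.34 to 2.77 and 1.71 to 1.91, so both ran against the sum. By title the sum was 2630 to 13450 for control, 2798 to 15120 for DMIOA and 13470 to 16090 for DMIOA+20S.
Of 19 macrophage and leukocyte markers 16 were measured, with sums of 564 to 720 on set A, 315 to 342 on B and 301 to 406 on C, and of 359 to 720, 315 to 564 and 301 to 342 by title. A lay above B for 11 of the 16 and below it for 0 (background 42.9% of genes in either direction). Against C, A lay above for 10 and below for 0 (background 43.2%). By title 3 were higher and 13 lower for DMIOA against control. In both other comparisons 0 were higher and 16 lower, and limma called 0 of them in any. The leukocyte antigen PTPRC read 5.12 to 5.37 on A, 2.18 to 2.67 on B and 1.94 to 2.47 on C. The brightest of the list were CTSS (5.90 to 6.89) and LAPTM5 (5.19 to 6.78). The sums of 11 of 11 endothelial markers were 755 to 834 on A, 449 to 476 on B and 379 to 480 on C. They rest mostly on ERG (8.25 to 9.38) and CDH5 (3.94 to 7.14), and 8 of the 11, KDR among them, stayed below 3 on all arrays. A lay above B for 3 of the 11 and below it for 3 (background 42.9% of genes in either direction). Against C, A lay above for 3 and below for 2 (background 43.2%). PECAM1 overlapped between all sets, so these genes had no common direction. The sums of 7 of 8 muscle markers were 4736 to 5070 on A, 779 to 839 on B and 452 to 549 on C. They rest on ACTA1 (7.61 to 11.63), TAGLN (7.66 to 10.68) and ACTA2. The smooth muscle myosin MYH11 ran the other way, at 3.77 to 4.49 on A, 5.12 to 5.97 on B and 4.78 to 4.99 on C, as did MYOG below 2. A lay above B for 3 of these 7 genes and below it for 2 (background 42.9% of genes in either direction). Of 10 mesothelial markers 5 were measured, led by KRT7 (11.07 to 11.89) and LRRN4 (4.50 to 6.54). The mesothelial sums were 2843 to 3157 on A, 3258 to 3863 on B and 2193 to 2370 on C. The stromal sums were 106400 to 109100, 113600 to 117200 and 106700 to 109000 in the same order, so A and C overlap. No sets overlap in the adipocyte, muscle and mesothelial sums, whereas B and C overlap in the macrophage and endothelial sums. EGR1 and MYC were apart between B and C, where JUN overlapped. The part of these cell types in the values of EGR1, MYC and JUN was not tested. In bulk RNA, fewer cells of a type and less RNA per cell cannot be told apart.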

How the data were processed

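RNA of 9 cultures was hybridized to Affymetrix Chicken Genome Arrays. The authors background corrected, normalized and summarized the scans with GCRMA in FlexArray, whose version is not given in the sources used here. The deposited values are log2 units, 1 per probe set and array. GCRMA compresses differences between dim probe sets. The array count, 3 per title, limits the precision.

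Groups were taken from the titles. After 96 control probe sets were left out, 38439 were fitted in R 4.3.3 by lmFit and eBayes of limma 3.58.1, with all 9 arrays in 1 model and p-values adjusted by Benjamini-Hochberg for each comparison. A call required adjusted p below 0.05 together with a 2-fold difference. The test was tried on simulated arrays with known differences before use. Those arrays were drawn independently, without sets that cut across the titles. The trial therefore does not show how the fit performs on arrays grouped as these are. The annotation gives 1 symbol for 27168 probe sets, several for 177 and none for 11094. The probe set with the highest mean stands for a gene (13009 genes). Entrez identifiers of 26853 probe sets matched RefSeq and changed 0 symbols. Tables and plots used matplotlib 3.10.9, scipy 1.17.1, pandas 2.3.3 and numpy 2.4.6 under Python 3.11.15.

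The members, gene lists and array sets were chosen with earlier results of these data known. Named genes are the members, the 2 genes with the widest range in each pathway list, the 2 brightest of each marker list and the 3 most like each member. Others were named after their values were seen. The fit was repeated with a replicate block, with the replicate 3 titles as a batch, with replicates 1 and 2 alone, with the 2 compared groups alone, by the methods' t-test, after quantile normalization or median centring, on the 12169 probe sets that reach log2 4 on 3 or more arrays, with trend and robust set in eBayes, with array weights, without the fold minimum, on the mean of a gene's probe sets, and without each array. The authors' fold changes were not used.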

Additional observations from a re-analysis of the deposited data

How the results depend on the processing

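No alternative brought a member past the threshold. The lowest adjusted p among them was 0.0720 for JUN in DMIOA+20S against control with array weights (log2 difference 1.0), and among 162 fits that left out 1 array it was 0.162. Of 177 other fits of members, 173 kept the direction. Many of them could not change it, because they give the same difference as the main fit. These are the replicate block, the replicate 3 batch, the 2 groups alone, the t-test, the dim filter and trend with robust. ATF3 turned to -0.021 for DMIOA against control and -0.13 for DMIOA+20S against control with replicates 1 and 2 only, and to 0.059 for DMIOA+20S against DMIOA with array weights. FOS turned to 0.19 for DMIOA+20S against DMIOA with replicates 1 and 2 only. Array weights moved the DMIOA against control difference to -0.66 for EGR1, 0.92 for JUN and -0.38 for MYC, and that of DMIOA+20S against DMIOA to -0.44, 0.086 and -0.13. With replicates 1 and 2 only, DMIOA+20S against control was -1.56, 1.17 and -0.66. The cause was not tested. FOS and FOSL2 have no value under the filter on dim probe sets, and the mean of probe sets applies to EGR1 alone.

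Leaving out each array in turn turned 16 of the 162 fits. Leaving out an array of the title not compared keeps the difference as it was, so those fits could not turn. For DMIOA against control the log2 difference ran from -0.66 to 0.17 for EGR1, -0.082 to 0.28 for FOS and -0.16 to 0.26 for ATF3. For DMIOA+20S against DMIOA it ran from -0.15 to 0.17 for FOS, -0.10 to 0.10 for FOSL2, -0.076 to 0.63 for JUN and -0.31 to 0.22 for ATF3. For DMIOA+20S against control it ran from -0.015 to 0.25 for FOS and -0.27 to 0.27 for ATF3.

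The 2 probe sets called for DMIOA+20S against control, of TNPO1 and RPS6KA6, are no members. RPS6KA6 is a relative of RPS6KA5 but is not in the related lists, so the 0 calls among those genes leave it out. The number of calls in this comparison was 1 with quantile normalization. It was 0 with the replicate block, the replicate 3 titles as a batch, replicates 1 and 2 only, and the 2 compared groups alone. It was also 0 with the methods' t-test, the filter on dim probe sets, eBayes with trend and robust, and any 1 array left out (0 to 0). The counts of this comparison with array weights, with median centring and without the fold minimum are not listed here. The other comparisons had 0 calls under every alternative. Deviations of same-numbered arrays correlated at r = -0.56 to 0.70, and 4 of 9 pairs exceeded 0.1. These are deviations from the titled means, which cut across the sets, so they cannot decide whether the numbers pair the arrays. Of 9 arrays, 4 were closest to their own number. Signal near the floor limits what FOS and FOSL2 can show.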
